A study of Mus musculus with 20 samples.

Results

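The T cell receptors (TCRs) of CD8 T cells were compared between mice lacking β5i and wildtype (WT) mice, on both the α and the β chain. β5i is the chymotrypsin-like catalytic subunit of the immunoproteasome, encoded by Psmb8 (chr17:34416690-34420428 in GRCm39). The members were all β5i-KO and WT libraries in which both chains gave usable clones, which were 9 of the 20 samples of the series. They came from 4 WT mice (replicates 1 to 4) and 5 β5i-KO mice (replicates 1 to 5), and WT replicate 5 was left out because its library failed. Mice of both groups were male, 9 to 12 weeks old and of the B6 background, and both groups carry β5t, the catalytic subunit found in thymic cortical epithelium. TCRβ-high CD4- CD8+ cells were sorted, from lymph nodes by the sample labels and from lymph nodes and spleens by the protocol, and their RNA was made into TCR libraries with molecule identifiers. The protocol speaks of individual mice, and each library is counted as 1 mouse. TCR libraries do not measure Psmb8 in either group, so they could not check the genotype labels. The study asked how the proteasomes of the thymus shape the CD8 T cells that are selected there, and the β5i-KO group shows what the loss of β5i alone leaves. The series also holds β5t-KO mice, which lack β5t, and BIT mice, which make β5t in place of β5i. BIT mice thus lack β5i as well, and libraries of both genotypes entered the fits of counts described below.

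Proteasomes cut cytosolic proteins into the peptides that major histocompatibility complex class I molecules present, and thymocytes are selected by the fit of their TCRs to such peptides. Each TCR chain is assembled from a variable (V) and a joining (J) gene segment, with a diversity segment between them on the β chain, and the ends are trimmed and joined with added bases. The junction encodes the third complementarity-determining region (CDR3), which lies over the presented peptide, and its central residues make most of the contact with it. Hydrophobic residues at positions 6 and 7 of CDR3β are known as a feature of self-reactive TCRs, and the same positions were read here on both chains.

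The sequences that carry the main difference were CDR3α sequences of TRAV12 genes that start with CALSD. The most abundant nucleotide form of each is printed for sets of receptors that share every residue but the one at position 6, counted from 1 at the conserved cysteine. Capitals mark the codon of position 6.
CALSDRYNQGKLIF: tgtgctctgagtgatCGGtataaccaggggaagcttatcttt
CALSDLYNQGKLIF: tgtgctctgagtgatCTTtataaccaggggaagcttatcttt
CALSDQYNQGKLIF: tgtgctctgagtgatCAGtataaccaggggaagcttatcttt
CALSDRYSNNRLTL: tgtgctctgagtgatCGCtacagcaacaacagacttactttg
CALSDLYSNNRLTL: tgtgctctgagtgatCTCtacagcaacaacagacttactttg
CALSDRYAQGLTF: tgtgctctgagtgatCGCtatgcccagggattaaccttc
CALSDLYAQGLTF: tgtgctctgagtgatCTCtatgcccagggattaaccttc
The first 3 use TRAJ23, the next 2 TRAJ7 and the last 2 TRAJ26, and TRAV12-1 (chr14:53775648-53776195) is the first V gene listed for each printed form. TRAV12-3 was listed first in some mice for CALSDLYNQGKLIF, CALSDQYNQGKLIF and both TRAJ7 sequences. The V segment was aligned up to base 16, 17 or 18 in these forms and the J segment began after base 17 or 18, so the codon of position 6 lies at the junction. MiXCR placed 0 to 2 bases between the aligned ends. Forms with 0 bases between them still differ within the capitals, so the number of inserted bases is an estimate.

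Depth differed widely between mice. The TCRα libraries held 2589 to 18470 in-frame clones in WT and 4652 to 26949 in β5i-KO mice, from 71357 to 555786 and from 13519 to 269678 molecules. The TCRβ libraries held 931 to 18095 and 5433 to 41381 in-frame clones, from 8088 to 124170 and from 14640 to 139509 molecules. WT replicate 1 was shallow in clones of both chains, and β5i-KO replicate 4 in molecules, with 53.7% of its TCRα clones and 69.8% of its TCRβ clones resting on 1 molecule. The replicate 4 libraries of both groups also stood apart in TRBV use, as described with the β chain. Receptors of invariant NKT cells (TRAV11 joined to TRAJ18) were at most 0.0346% and those of MAIT cells (TRAV1 joined to TRAJ33) at most 0.0454% of TCRα clonotypes in any mouse. TRAV/DV genes, which are shared with the δ locus, and TRDV genes together made up 6.11% to 8.12% of clonotypes in WT and 6.17% to 8.77% in β5i-KO mice.

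Within the CALSD receptors of β5i-KO mice, arginine at position 6 was less abundant by molecules, and leucine and glutamine there were more abundant. Percentages are of the in-frame TCRα molecules of a mouse, and a share of molecules moves with the number of cells of a clone and with the receptor RNA per cell, which cannot be told apart here. The residue and the motif were picked after their values were seen, so these values are a description with no test. Receptors that read CALSD, arginine, tyrosine made up 1.58%, 1.22%, 1.97% and 0.780% of molecules in the 4 WT mice. They made up 0.264%, 0.520%, 0.275%, 0.348% and 0.440% in the 5 β5i-KO mice. Every β5i-KO mouse lay below every WT mouse, and the WT mean was 3.75-fold the β5i-KO mean (1.39% ± 0.507, n = 4, against 0.370% ± 0.110, n = 5, SD).

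Leucine at the same place was more abundant in β5i-KO mice. CALSD, leucine, tyrosine receptors were at 0.0743%, 0.223%, 0.158% and 0.0864% of molecules in WT mice. They were at 0.551%, 0.780%, 0.418%, 0.533% and 0.617% in β5i-KO mice. The groups did not overlap, and the β5i-KO mean was 4.28-fold the WT mean. Glutamine was at 0.190%, 0.256%, 0.150%, 0.178% and 0.276% of molecules in β5i-KO mice and at no more than 0.0404% in WT mice. No molecule of this kind was seen in WT replicate 1, which allows a share of up to 0.00420%. Asparagine (0.175% to 0.264% in WT, 0.281% to 0.687% in β5i-KO mice) and histidine (up to 0.0697% in WT, 0.0773% to 0.148% in β5i-KO mice) were also higher with no overlap. Of the 20 residues, 1 was lower and 4 were higher without overlap, and the ranges of the other residues overlapped. The motif with any residue at position 6 overlapped between groups, at 1.48% to 2.68% of molecules in WT and 1.72% to 2.88% in β5i-KO mice.

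**Figure D1:**
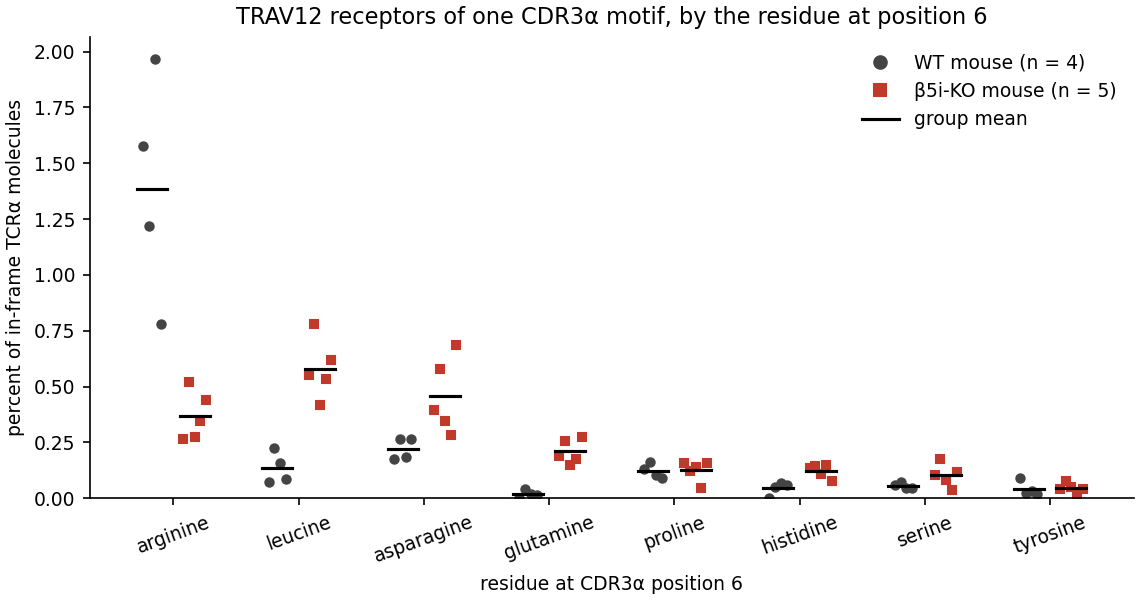
Percent of in-frame TCRα molecules that start with CALSD and carry tyrosine at position 7, for 8 residues at position 6 (x axis), in each of 4 WT mice (circles) and 5 β5i-KO mice (squares), with group means as lines. All 5 β5i-KO mice lie below the WT mice for arginine and above them for leucine, asparagine, glutamine and histidine.

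By distinct clonotypes (V gene, J gene and amino acid CDR3, each counted once), all 20 residues overlapped between groups in the CALSD motif with tyrosine at position 7. The number of arginine clonotypes was 15, 11, 35 and 22 in WT and 25, 11, 29, 12 and 4 in β5i-KO mice, and that of leucine clonotypes was 3, 8, 15 and 17 in WT and 33, 9, 29, 14 and 15 in β5i-KO mice. Both ranges overlap between the groups, but these counts are not scaled to depth, which ran from 2454 to 24843 TCRα clonotypes per mouse. CALSD followed by arginine, with any residue at position 7, was lower in β5i-KO mice by both counts. It made up 4.59% to 5.95% of molecules in WT and 2.54% to 3.10% in β5i-KO mice, and 2.38% to 3.75% of clonotypes in WT and 1.69% to 2.23% in β5i-KO mice. CALSD receptors as a whole made up 10.6% to 12.0% of TCRα molecules in WT and 8.01% to 9.97% in β5i-KO mice, which did not overlap. By clonotypes they made up 7.09% to 9.86% in WT and 6.32% to 8.02% in β5i-KO mice, which overlapped. A TRAV12 gene was listed first for 92.2% to 97.0% of CALSD molecules.

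Over all in-frame CDR3α sequences, arginine at position 6 made up 7.30% to 8.48% of molecules in WT and 5.32% to 6.21% in β5i-KO mice. Leucine there (3.12% to 3.31% in WT, 3.44% to 3.88% in β5i-KO mice) was higher with no overlap. Asparagine (14.7% to 15.6% against 15.7% to 16.8%) and methionine (1.81% to 2.05% against 2.15% to 2.35%) were also higher with no overlap. Among sequences that do not start with CALSD, arginine and leucine overlapped between groups, while asparagine, glycine and methionine were higher in β5i-KO mice without overlap.

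Among single sequences, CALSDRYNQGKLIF was the 1 called sequence of the 3699 CDR3α sequences tested by molecules (edgeR quasi-likelihood test, Benjamini-Hochberg adjusted p below 0.05), so that 0.027% of all sequences tested were called. It made up 0.859%, 0.783%, 1.21% and 0.420% of molecules in WT mice. It made up 0.0896%, 0.329%, 0.0742%, 0.185% and 0.149% in β5i-KO mice. All β5i-KO mice lay below all WT mice, and the fitted log2 fold change was -2.31 ± 0.32 (SE, edgeR adjusted p = 1.1e-09). The call was kept without any 1 mouse (log2 fold change -2.72 to -2.06) but not with DESeq2, which gave -1.94 (adjusted p = 0.842) and called 3 other sequences. The 9 mice held 14 nucleotide forms of it, 4 to 10 in each mouse, and the printed form was in all 9 mice. At an unadjusted p under 0.05, edgeR gave 92 sequences and DESeq2 115.

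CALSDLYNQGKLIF, which differs by leucine at position 6 alone, made up 0.0448%, 0%, 0.0308% and 0.0142% of molecules in WT mice. It made up 0.124%, 0.237%, 0.100%, 0.0962% and 0.0987% in β5i-KO mice. The groups did not overlap, and the log2 fold change was 2.55 ± 1.33 (SE), which was not called (edgeR adjusted p = 1.0). The share of 0 in WT replicate 2 allows up to 0.00171%. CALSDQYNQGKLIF, with glutamine, was at 0% to 0.0131% in WT and 0.0445% to 0.0993% in β5i-KO mice, also without overlap (log2 fold change 3.59 ± 1.65, edgeR adjusted p = 1.0).

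In the TRAJ7 pair, CALSDRYSNNRLTL had the second smallest p of the CDR3α sequences, with 0.366%, 0.127%, 0.260% and 0.119% of molecules in WT and 0.0552%, 0.0612%, 0.0367%, 0.0148% and 0.104% in β5i-KO mice. The groups did not overlap, but the log2 fold change of -1.99 ± 0.52 (SE) did not pass (edgeR adjusted p = 0.229). Without β5i-KO replicate 5 it was -2.35 and passed (edgeR adjusted p = 0.0443). It did not pass without any other single mouse (edgeR adjusted p up to 0.979) or without both shallow libraries (log2 fold change -1.40). DESeq2 gave -1.49 and did not call it (adjusted p = 0.999). CALSDLYSNNRLTL was at 0.0126% to 0.0928% in WT and 0.0679% to 0.239% in β5i-KO mice, which overlapped. For the TRAJ26 pair, the arginine form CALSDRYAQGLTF overlapped (0.0154% to 0.108% in WT, 0.0333% to 0.135% in β5i-KO mice). Its leucine form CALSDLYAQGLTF was at 0%, 0%, 0.00642% and 0.00216% in WT and 0.0719%, 0.177%, 0.106%, 0.111% and 0.0813% in β5i-KO mice, without overlap (log2 fold change 5.54 ± 1.67, edgeR adjusted p = 0.652). The 0% of WT replicates 1 and 2 allow up to 0.00420% and 0.00171%.

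Groups did not overlap in the lower direction for 25 of the 3699 CDR3α sequences tested (0.676%) and in the higher direction for 27 (0.73%). Of them, 8 of the lower and 7 of the higher sequences started with CALSD, of 350 such sequences tested. Arginine was at position 6 in 7 of these 8 lower sequences, among 127 tested, and leucine in 4 of these 7 higher sequences, among 43 tested. The motif and the residues were picked from these same values, so these counts restate that choice and are no further support. By J gene, CALSD, arginine, tyrosine receptors were lower in β5i-KO mice without overlap for 5 of 32 TRAJ genes (TRAJ7, TRAJ15, TRAJ23, TRAJ27 and TRAJ32). For TRAJ15 the 0 of β5i-KO replicate 4 allows up to 0.0222%, above 3 of the 4 WT values, so the separation there was not detectable at this depth. For TRAJ27 the same mouse was at 0.00740%, below that limit and near the lowest WT value of 0.00797%, so that separation is also uncertain. The leucine receptors were higher without overlap for 4 of 32 (TRAJ15, TRAJ23, TRAJ26 and TRAJ32). In the β5t-KO and BIT mice of the series, the arginine receptors ran from 7.50% to 11.2% and from 0.0785% to 0.209% of molecules, and the leucine receptors from 0% to 0.108% and from 0.0890% to 0.196%. The WT values beside them are those given above.

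Hydrophobic residues (C, F, I, L, M, V, W or Y) at both positions 6 and 7 of CDR3α were more frequent in β5i-KO mice by molecules. They were at 1.13%, 1.44%, 1.32% and 1.29% of molecules in WT mice and at 1.94%, 2.23%, 1.799%, 1.82% and 2.53% in β5i-KO mice. The groups did not overlap, and the exact permutation p was 0.0159 (two-sided), the smallest that 4 mice against 5 can give. This did not hold after adjustment over the 44 CDR3 measures (adjusted exact permutation p = 0.233), of which 3 (6.82%) did not overlap and 0 (0%) passed, with 4 at an unadjusted p under 0.05. By clonotypes the values were 1.63%, 1.47%, 1.504% and 1.63% in WT and 1.87%, 1.95%, 1.86%, 1.59% and 2.30% in β5i-KO mice, and β5i-KO replicate 4 lay among the WT mice.

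The CALSD receptors held most of this difference. Leucine and tyrosine are both in the hydrophobic set, so the CALSD, leucine, tyrosine receptors described above are counted again here. The measure is therefore not independent of that motif, which was picked after its values were seen. CALSD receptors with both hydrophobic residues made up 0.275% to 0.431% of all TCRα molecules in WT and 0.768% to 1.30% in β5i-KO mice. All other receptors with both residues made up 0.855% to 1.01% in WT and 0.932% to 1.39% in β5i-KO mice, which overlapped. Within the CALSD receptors alone, 2.28% to 4.04% of WT molecules and 9.41% to 13.1% of β5i-KO molecules had both residues. By clonotypes, CALSD receptors with both residues made up 0.338% to 0.448% of all TCRα in WT and 0.459% to 0.888% in β5i-KO mice, also without overlap. The other receptors overlapped by clonotypes, at 1.09% to 1.24% in WT and 1.01% to 1.41% in β5i-KO mice. On the β chain the measure overlapped, at 1.14% to 1.40% of molecules in WT and 1.07% to 1.47% in β5i-KO mice (exact permutation p = 0.873, two-sided).

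**Figure D2:**
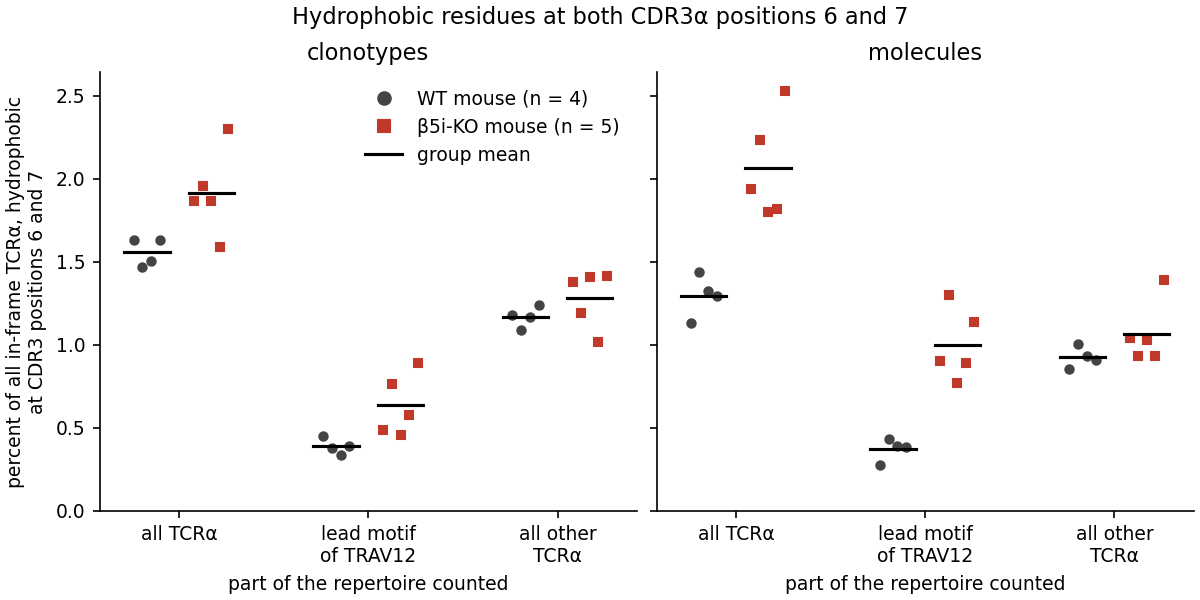
Percent of all in-frame TCRα of each mouse with hydrophobic residues at both CDR3 positions 6 and 7, by clonotypes (left) and by molecules (right), for all TCRα, for those starting with CALSD and for all others. Circles are 4 WT mice, squares 5 β5i-KO mice and lines group means. By molecules the groups separate for all TCRα and for CALSD receptors and overlap for the others. By clonotypes they separate for CALSD receptors only.

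Amino acid use along the middle of the CDR3, without the first 3 and last 3 residues, gave 80 measures over 20 amino acids, both chains and both counts. None passed after adjustment (0%, smallest adjusted p = 0.635 by exact permutation, two-sided), 4 had an unadjusted p under 0.05 and 2 (2.5%) did not overlap. Asparagine took 13.4% to 13.6% of the middle residues of TCRα clonotypes in WT and 13.6% to 13.9% in β5i-KO mice. Arginine took 5.50% to 5.79% of those of TCRα molecules in WT and 5.26% to 5.48% in β5i-KO mice. The exact permutation p was 0.0159 for each.

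CDR3 length overlapped between the groups. The mean was 13.5 to 13.6 residues in WT and 13.5 to 13.7 in β5i-KO mice by TCRα clonotypes, with 29.7% to 31.5% and 29.7% to 30.8% at 14 residues, the most frequent length. By TCRβ clonotypes the mean was 13.9 residues in each mouse. The β5i-KO minus WT difference of the means was 0.0219 residues for α (exact permutation p = 0.524, two-sided) and 0.00438 for β (p = 0.937, exact permutation). Each length from 8 to 20 residues overlapped between groups on both chains by clonotypes. WT replicate 1, with 919 TCRβ clonotypes, had the highest share at 13 and at 14 residues.

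**Figure D3:**
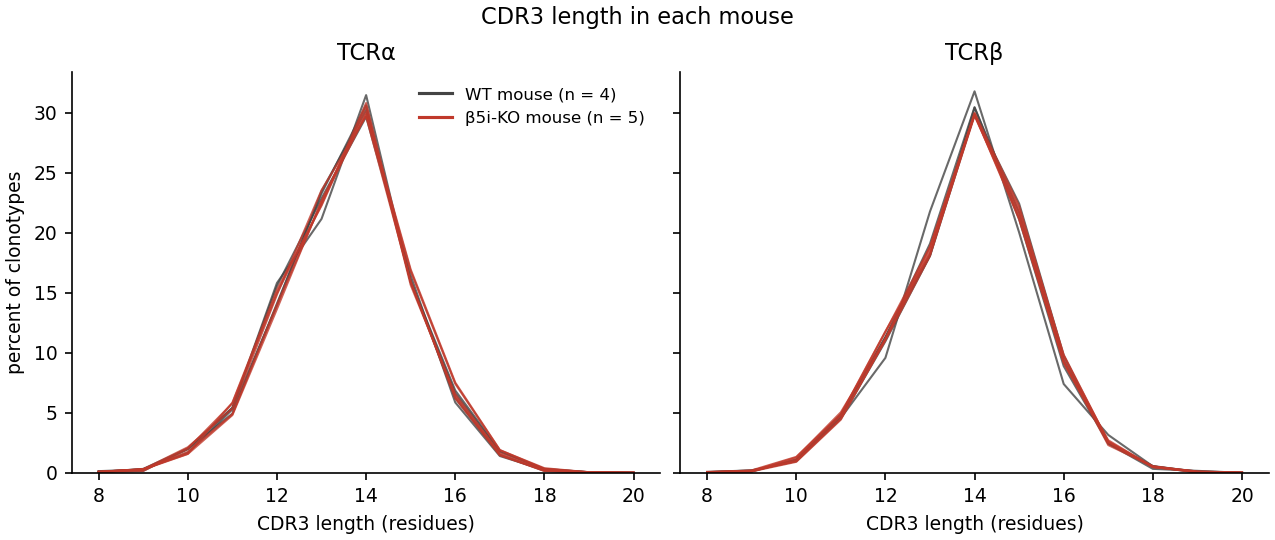
Percent of in-frame clonotypes (y axis) at each CDR3 length in residues (x axis), for TCRα (left) and TCRβ (right), with 1 line per mouse (4 WT, 5 β5i-KO). The lines lie together at 14 residues, the most frequent length of both chains, and WT replicate 1 lies highest there on the β chain.

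Added bases overlapped as well. Terminal transferase adds them where segments join, and they were counted here as bases between the aligned segment ends. TCRα clonotypes held a mean of 2.10 to 2.38 inserted bases in WT and 2.20 to 2.43 in β5i-KO mice (exact permutation p = 0.603, two-sided). TCRβ clonotypes held 2.92 to 3.03 in WT and 2.99 to 3.05 in β5i-KO mice (exact permutation p = 0.127, two-sided). Clonotypes with no inserted base were 24.4% to 29.7% of TCRα in WT and 23.9% to 28.1% in β5i-KO mice, and 14.6% to 17.5% of TCRβ in WT and 14.4% to 15.1% in β5i-KO mice. The 2 highest TCRβ shares were those of WT replicates 1 and 3.

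The bases trimmed from the J gene of TCRα were fewer in β5i-KO mice, with means of 2.96 to 2.97 in WT and 2.87 to 2.92 in β5i-KO mice by clonotypes and 2.93 to 2.95 and 2.83 to 2.89 by molecules. Neither count overlapped, and the exact permutation p was 0.0159 for each (two-sided, adjusted p = 0.233 over the 44 measures). Within single TRAJ genes the β5i-KO mean was lower for 24 of 43 genes, 0 of the 43 were without overlap, and the median difference was -0.0104 bases. Means of single genes varied more between mice than the overall means, as for TRAJ23 (2.88 to 3.21 in WT). They therefore could not show whether a shift of this size lies within genes.

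V gene use by clonotypes gave 1 call among 93 TRAV genes tested (1.08%), TRAV7D-5, which was lower in β5i-KO mice. TRAV7D-5 lies at chr14:53073315-53073844 in the upstream duplicated part of the α locus. It was used by 4.77%, 3.41%, 2.96% and 2.87% of clonotypes in WT mice. It was used by 1.73%, 3.44%, 1.30%, 1.44% and 2.53% in β5i-KO mice. β5i-KO replicate 2 lay among the WT mice, so the groups overlapped, and the other 4 lay below all of them (log2 fold change -0.77 ± 0.19, SE, edgeR adjusted p = 0.0372). With every library thinned to the same number of molecules the means were 3.95% and 2.33%. The call was lost without WT replicate 1, 2 or 3 or β5i-KO replicate 1, 3 or 4 (edgeR adjusted p of 0.0646 to 0.273), without both shallow libraries (log2 fold change -0.55, adjusted p = 0.402) and with DESeq2 (-0.85, adjusted p = 0.603). By molecules 0 of 103 TRAV genes were called by edgeR (0%) and 0 by DESeq2, with 9 and 7 at an unadjusted p under 0.05. TRAV7D-5 was at 7.75%, 4.30%, 3.62% and 3.58% of molecules in WT and at 2.09%, 4.59%, 1.69%, 1.55% and 3.46% in β5i-KO mice (log2 fold change -0.84 ± 0.30, edgeR adjusted p = 0.495).

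The transcript of TRAV7N-5, a copy of the gene at chr14:53384376-53384905, is identical to that of TRAV7D-5 over its 340 bases in the GENCODE annotation. It was listed beside TRAV7D-5 in 14.2% to 75.0% of the clones, so values given for TRAV7D-5 stand for both copies. The other 10 TRAV7 genes tested had a median log2 fold change of 0.08, with 7 positive and 3 negative, beside a median of 0.09 over all 93 genes, and 0 of them were called.

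The lower use of TRAV7D-5 was spread over the J genes. Its pairs divide the same clonotypes, so their signs restate that lower use and are no further support for it. Of its 33 TRAV-TRAJ pairs tested, 32 had a negative log2 fold change (median -0.81), beside 562 negative of all 1206 pairs (median 0.03). Both pairs called by clonotypes were among them, of the 2 called in all (0.166%). TRAV7D-5 with TRAJ34 was seen as 6, 5, 12 and 10 clonotypes in WT and 6, 2, 2, 2 and 1 in β5i-KO mice, which were 0.0593% to 0.244% and 0.00805% to 0.0391% of clonotypes without overlap (log2 fold change -1.97 ± 0.47, edgeR adjusted p = 0.0181). TRAV7D-5 with TRAJ40 was seen as 0, 7, 11 and 8 clonotypes in WT and 1, 3, 1, 0 and 2 in β5i-KO mice (log2 fold change -2.43 ± 0.58, edgeR adjusted p = 0.0181). The 0 of WT replicate 1 allows up to 0.122% and that of β5i-KO replicate 4 up to 0.0454% of clonotypes, and the TRAJ40 shares overlapped. Neither call held without β5i-KO replicate 3 (edgeR adjusted p = 0.739 for each), nor with DESeq2 (adjusted p = 0.995 for each), nor in thinned libraries (edgeR adjusted p = 0.250 for TRAJ34 and 0.294 for TRAJ40). The TRAJ34 call was also lost without WT replicate 1, 2 or 3 or β5i-KO replicate 1 (edgeR adjusted p of 0.0953 to 0.171), and the TRAJ40 call without WT replicate 2 or 3 or β5i-KO replicate 1 or 4 (0.0741 to 0.362). By molecules 0 of 2759 pairs were called by edgeR (0%), with 165 at an unadjusted p under 0.05, while DESeq2 called 6.

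**Figure D4:**
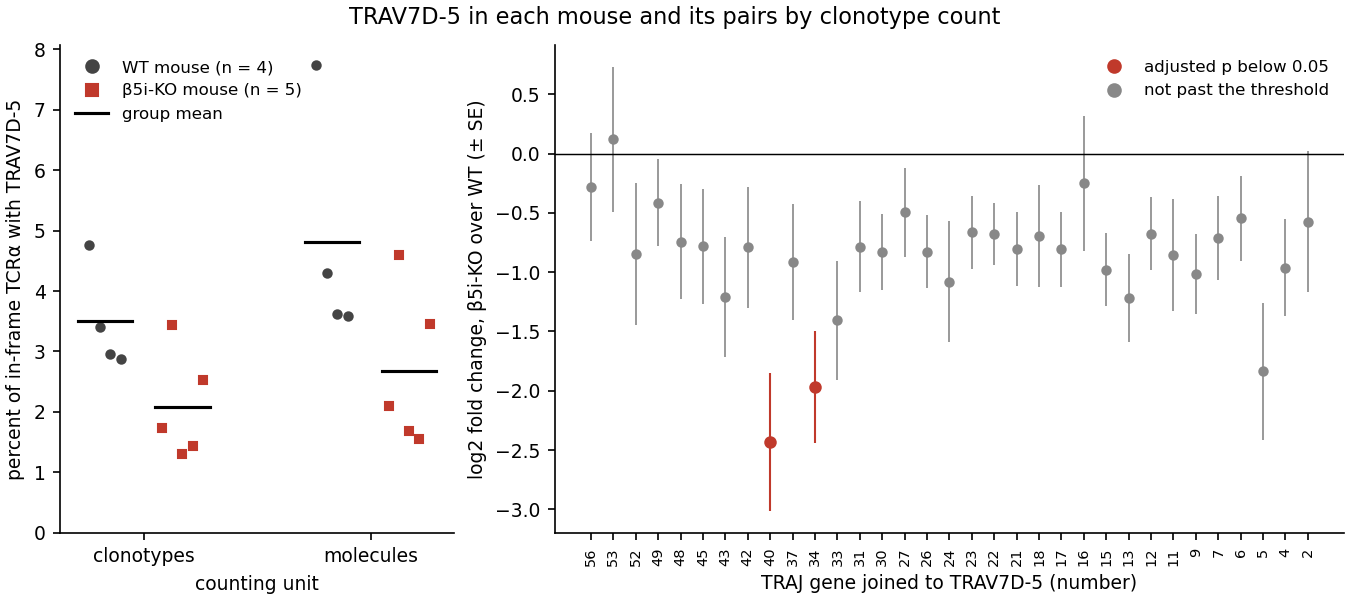
Left, percent of in-frame TCRα with TRAV7D-5 in each of 4 WT mice (circles) and 5 β5i-KO mice (squares), by clonotypes and by molecules, with group means as lines. Right, log2 fold change of β5i-KO over WT (± SE) by clonotypes for each TRAJ gene joined to TRAV7D-5, where 32 of 33 are negative and the TRAJ40 and TRAJ34 pairs pass the threshold.

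The 3 most used V genes were TRAV12-1, TRAV12-2 and TRAV3-3. TRAV12-1, listed first for 61.7% to 76.6% of CALSD molecules, was used by 19.2%, 18.4%, 15.3% and 14.9% of clonotypes in WT and 12.2%, 17.7%, 11.5%, 13.9% and 16.7% in β5i-KO mice. The groups overlapped, and the log2 fold change was -0.24 ± 0.11 (edgeR adjusted p = 0.350). Of its 42 pairs, which divide the same clonotypes, 35 were negative (median -0.26). The pair with TRAJ5 had the third smallest p of all pairs, at 0.285% to 0.380% in WT and 0.159% to 0.273% in β5i-KO mice without overlap (log2 fold change -0.79 ± 0.22, edgeR adjusted p = 0.142). This pair passed without β5i-KO replicate 2 (edgeR adjusted p = 0.0401) and in libraries thinned to equal depth (log2 fold change -0.97, edgeR adjusted p = 0.0324, and 0.0120 with the 9 mice alone). It did not pass without any other single mouse (edgeR adjusted p up to 0.739) or under the other alternatives. Over all of them its log2 fold change ran from -0.97 to -0.27, with an edgeR or DESeq2 adjusted p of up to 0.995. TRAV12-3 was listed beside TRAV12-1 in 61.0% to 92.6% of clones, so single genes of the family are uncertain. TRAV12-2 (4.53% to 7.21% in WT, 5.48% to 6.11% in β5i-KO mice) and TRAV3-3 (3.55% to 5.22% against 2.92% to 4.77%) overlapped as well. The TRAV genes with the next smallest p were all used more in β5i-KO mice, with log2 fold changes of 0.40 for TRAV4-4-DV10, 0.42 for TRAV19, 0.69 for TRAV8D-1 and 0.67 for TRAV7-6. All 4 overlapped and had an edgeR adjusted p of 0.152.

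J gene use of the α chain gave 0 calls among 43 TRAJ genes (0%) by clonotypes and 0 of 43 (0%) by molecules, both with edgeR and with DESeq2. At an unadjusted p under 0.05 edgeR gave 1 and 1, and DESeq2 1 and 2. The largest log2 fold changes among the 5 genes with the smallest p were -0.19 ± 0.09 for TRAJ18 and 0.19 ± 0.11 for TRAJ53 by clonotypes. TRAJ18 was used by 1.68% to 2.06% of clonotypes in WT and 1.51% to 1.71% in β5i-KO mice. Along the locus, all 13 TRAJ genes numbered 20 or less, which lie farthest from the V genes, had a negative log2 fold change by clonotypes (median -0.09). Of the 13 numbered above 40, which lie nearest to the V genes, 11 were positive (median 0.10), beside 22 positive of all 43. By molecules 9 of 13 were negative and 11 of 13 positive. The shares of these J regions overlapped between the groups, at 27.7% to 31.9% and 27.2% to 28.5% of clonotypes for the genes numbered 20 or less (exact permutation p = 0.0952, two-sided, adjusted p = 0.416) and at 19.5% to 22.8% and 21.4% to 22.7% for those above 40 (exact permutation p = 0.111, adjusted p = 0.416). The highest and the lowest of these WT shares, 31.9% and 19.5%, were those of WT replicate 4. TRAV16 to TRAV21, the V genes nearest to the J genes, made up 2.58% to 3.06% of clonotypes in WT and 2.64% to 3.50% in β5i-KO mice. Of the 24 measures of position along both loci, 0 passed (0%) and 0 were without overlap (0%), with 0 at an unadjusted p under 0.05.

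**Figure D5:**
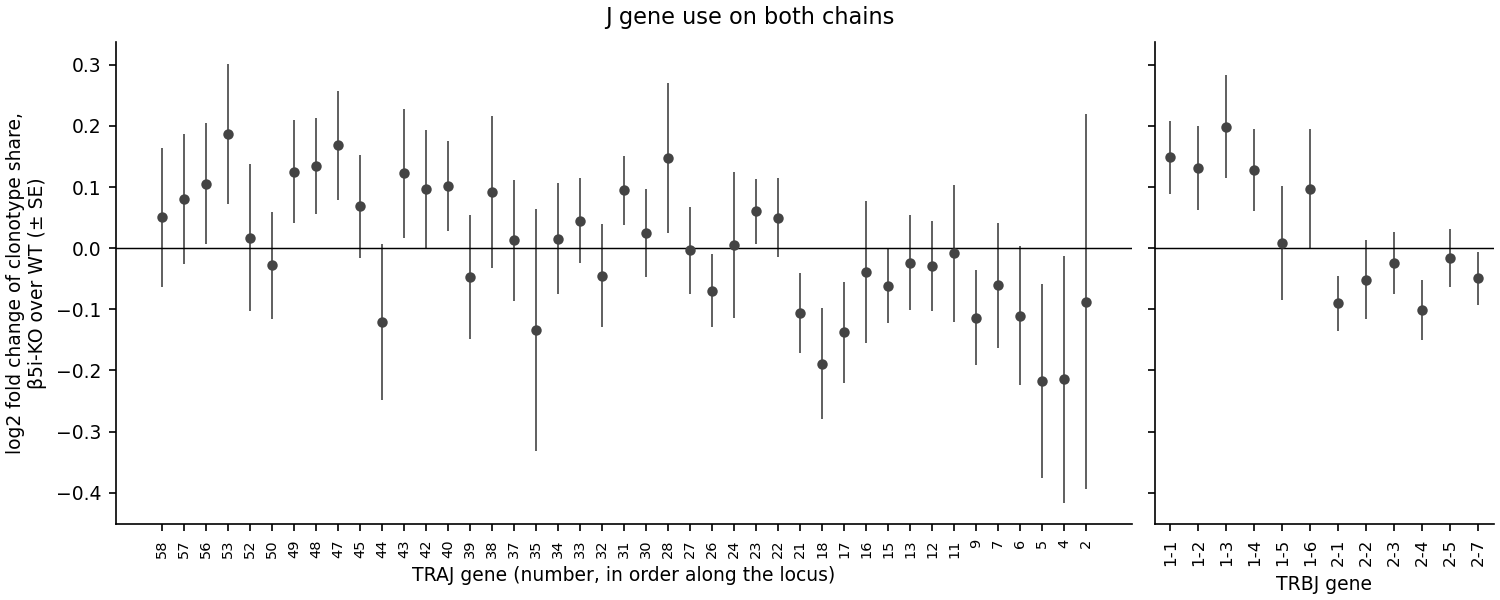
Log2 fold change (β5i-KO over WT, ± SE) of each TRAJ gene in order along the locus (left) and each TRBJ gene (right) by clonotypes. All 13 TRAJ genes numbered 20 or less and all 6 TRBJ2 genes lie below 0 and all 6 TRBJ1 genes above it, and none passes the threshold.

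On the β chain, 0 of 23 TRBV genes were called by edgeR (0%) by clonotypes and 0 of 23 (0%) by molecules, and 0 by DESeq2 by either count. At an unadjusted p under 0.05, edgeR gave 1 and 0 genes and DESeq2 1 and 1. TRBV2 had the smallest p, with 4.79%, 5.23%, 3.46% and 4.76% of clonotypes in WT and 2.79%, 4.34%, 2.70%, 3.08% and 3.88% in β5i-KO mice. The groups overlapped, and the log2 fold change was -0.44 ± 0.16 (edgeR adjusted p = 0.368). All of its 12 pairs with TRBJ genes, which divide the same clonotypes, were negative (median -0.49), beside 115 negative of all 248 pairs (median 0.03). TRBV19 (log2 fold change 0.32 ± 0.19) and TRBV23 (-0.27 ± 0.25) had an edgeR adjusted p of 0.889 each. The most used V genes were TRBV16, TRBV13-2 and TRBV13-3, and all 3 overlapped between the groups. TRBV16 was used by 16.5% of clonotypes in WT replicate 4 and by 16.5% in β5i-KO replicate 4, and by 9.68% to 12.6% in the other mice.

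The replicate 4 libraries also had the highest shares of TRBV14 to TRBV30 (48.2% in WT and 50.3% in β5i-KO, 38.4% to 44.1% in the other mice) and the lowest of TRBV12 and TRBV13 (28.0% and 27.7%, against 30.7% to 37.2%). With both left out, edgeR called 0 of 23 TRBV genes, 0 of 12 TRBJ genes and 0 TRBV-TRBJ pairs by either count, and 0 CDR3β sequences by molecules. At an unadjusted p under 0.05 it then gave 0 TRBV genes, 0 TRBJ genes and 8 pairs by clonotypes, and 1, 0 and 6 by molecules. Of the 938 CDR3β sequences tested, it gave 99.

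Of the TRBJ genes, 0 of 12 were called by clonotypes (0%) and 0 of 12 by molecules (0%), by edgeR or DESeq2. At an unadjusted p under 0.05 edgeR gave 4 and 1 genes, and DESeq2 2 and 1. By clonotypes all 6 TRBJ1 genes were positive (median 0.13) and all 6 TRBJ2 genes negative (median -0.05), and by molecules 4 of 6 were positive and 5 of 6 negative. Some lay near 0, such as TRBJ1-5 (0.01 ± 0.09) and TRBJ2-5 (-0.02 ± 0.05). TRBJ1-1 was at 9.47%, 10.9%, 9.94% and 9.09% of clonotypes in WT and at 10.8%, 11.8%, 10.3%, 9.91% and 12.0% in β5i-KO mice (log2 fold change 0.15 ± 0.06). TRBJ1-3 had a log2 fold change of 0.20 ± 0.08 and also overlapped. TRBJ2-4 was lower without overlap, at 8.97% to 9.50% in WT and 8.34% to 8.88% in β5i-KO mice (log2 fold change -0.10 ± 0.05). These genes had an edgeR adjusted p of 0.127 each. TRBJ1-1, TRBJ1-3, TRBJ1-4 and TRBJ2-1 passed without β5i-KO replicate 4 (edgeR adjusted p of 0.0265 to 0.0469), while 0 genes passed with both replicate 4 libraries left out. TRBJ1-1 passed without WT replicate 2 (0.0315) and TRBJ1-3 without WT replicate 3 (0.0139). TRBJ1-3 and TRBJ2-4 passed in libraries thinned to equal depth (edgeR adjusted p = 0.0485 each) and TRBJ1-3 with no single-molecule clones (0.0496). The 4 genes that passed without β5i-KO replicate 4 also passed without both shallow libraries (0.0260 to 0.0452). The share of TRBJ1 genes together was 29.5%, 29.9%, 29.6% and 26.4% of clonotypes in WT and 31.3%, 33.6%, 30.4%, 28.2% and 33.6% in β5i-KO mice, and the replicate 4 library of each group had its lowest share (exact permutation p = 0.127, two-sided, adjusted p = 0.416).

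None of 248 TRBV-TRBJ pairs was called by clonotypes (0%) and none of 263 by molecules (0%), by edgeR or DESeq2. At an unadjusted p under 0.05 edgeR gave 15 and 6 pairs and DESeq2 11 and 8. The pairs with the smallest p were TRBV2 with TRBJ2-4 (log2 fold change -0.66 ± 0.25), TRBV13-3 with TRBJ1-3 (0.62 ± 0.23) and TRBV19 with TRBJ1-1 (0.43 ± 0.17), each with an edgeR adjusted p of 0.766. TRBV13-3 with TRBJ1-3 made up 0.218% to 0.412% of clonotypes in WT and 0.422% to 0.556% in β5i-KO mice, without overlap. It was also without overlap by molecules, at 0.191% to 0.346% and 0.464% to 0.728%.

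Of 938 CDR3β sequences tested by molecules, 0 were called by edgeR (0%) and 0 by DESeq2, with 48 and 24 at an unadjusted p under 0.05. None was lower in β5i-KO mice without overlap (0%), and 11 (1.17%) were higher. A sequence can be lower without overlap only if every WT library holds it. WT replicate 1 held 912 CDR3β sequences from 8088 molecules, so depth limits the first count and the 2 directions cannot be compared. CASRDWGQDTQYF (TRBV4, TRBJ2-5) had the smallest p. It was seen in 4 β5i-KO mice, at 0.00452%, 0.0273%, 0.00788% and 0.0716% of molecules, and in no WT mouse, where the counts of 0 allow up to 0.00242% to 0.0371% (edgeR adjusted p = 0.484). β5i-KO replicate 4, which had none either, allows up to 0.0205%, so the groups overlapped. Sequences entered the test with 3 or more molecules in at least 4 mice, counted over both groups together. A sequence absent from all WT mice could thus be tested only if at least 4 β5i-KO mice held it. The presence of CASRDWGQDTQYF in 4 β5i-KO mice was therefore a condition of its test and is no further support for a difference. The sequence with the second smallest p, carried with TRBV13-3 and TRBJ2-2, was at 0%, 0.139%, 0.184% and 0.0548% of molecules in WT mice and was seen in 1 β5i-KO mouse, replicate 3, at 0.0108%. The groups overlapped through WT replicate 1 (log2 fold change -5.02 ± 1.61, edgeR adjusted p = 0.484).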

How the data were processed

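The deposited tables, made by the authors with MiXCR (version not given in the sources used here) from SMARTer libraries, hold a count of unique molecules for each clone. The submitters' processing notes name mm10. Gene positions are those of GENCODE M39 (GRCm39). In-frame clones had no stop or frame mark in the CDR3. The first listed V and J gene was used, and a clonotype was a V gene, a J gene and an amino acid CDR3. Inserted and trimmed bases were read from the alignment positions of nucleotide clonotypes. Use was tested on clonotype counts and molecule counts with edgeR 4.0.16 (R 4.3.3; quasi-likelihood test, library sizes, Benjamini-Hochberg adjustment, threshold 0.05), in 1 fit of 17 libraries of all 4 genotypes. Genes and pairs needed a count of 5 in 4 libraries, and CDR3 sequences 3 molecules in 4 of the 9 mice. Per-mouse measures were compared by exact permutation of 126 splits (two-sided, Python 3.11.15). DESeq2 1.42.0, TMM, other filters, clonotype definitions, a replicate block, thinned libraries (13519 TCRα and 7669 TCRβ molecules, or 8088 TCRβ molecules in the 9 mice) and libraries left out were alternatives. The scripts were tested on simulated data.

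Named features were those called, those with the smallest p and the most used ones. The members and lists were chosen with earlier results of these data known. A count of 0 allows 3 counts, and such limits cover counting error only. Depth ranged from 8088 to 555786 molecules per library and chain. No pair of libraries was identical.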

Additional observations from a re-analysis of the deposited data

Results flagged for a closer look

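In 6 of 142 groups of 4 or 5 mice, 1 mouse lay far from the rest of its group relative to the group's range, and chance alone sets apart about 1 in 20 such groups. WT replicate 4 had TRBJ1 genes in 26.4% of TCRβ clonotypes, against 29.5% to 29.9% in the other WT mice. WT replicate 4 also used TRAJ17 in 3.00% of TCRα clonotypes, against 2.61% to 2.66%. β5i-KO replicate 4 used TRBV13-3 in 11.9% of TCRβ clonotypes, against 9.53% to 10.2% in the other β5i-KO mice. β5i-KO replicate 2 used TRBV23 in 1.81%, against 0.976% to 1.18%. WT replicate 1, which has the fewest clones, held TRAV7D-5 with TRAJ34 in 0.244% of TCRα clonotypes, against 0.0593% to 0.0864%. β5i-KO replicate 3 held a CDR3β sequence of TRBV13-3 and TRBJ2-2 at 0.0108% of molecules, and the other β5i-KO mice held none.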

How the results depend on the processing

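Of all values recomputed under the alternatives, 1598 kept their direction and side of the threshold, 42 counts or values moved, 38 lost and 16 gained a call, and 20 reversed. The causes were not tested. TRAV genes called by clonotypes went from 1 to 0 under DESeq2, TMM, no single-molecule clones, 1 V gene listed, the 9 mice alone, and without both shallow or both replicate 4 libraries, and ran from 0 to 5 without 1 mouse (5 without β5i-KO replicate 2). TRBJ genes called by clonotypes went from 0 to 4 without the shallow libraries, 2 in thinned libraries and 1 with no single-molecule clones, and ran from 0 to 4 without 1 mouse (4 without β5i-KO replicate 4). TRAV-TRAJ pairs called by clonotypes went from 2 to 0 under DESeq2, no filter, no single-molecule clones, the 9 mice alone and without the shallow libraries, to 1 without both replicate 4 libraries (TRAV7D-5 with TRAJ34) and in libraries thinned together or over the 9 mice (TRAV12-1 with TRAJ5, not one of the 2), and to 4 with 1 V gene listed or the replicate block, and ran from 0 to 4 without 1 mouse (0 without WT replicate 2, 4 without β5i-KO replicate 2). By molecules DESeq2 called 6 pairs in place of 0. CDR3α sequences called went from 1 to 3 under DESeq2 and 4 in the 9 mice alone, and ran from 1 to 2 without 1 mouse (2 without β5i-KO replicate 5). The β5i-KO minus WT difference in inserted bases of TCRα ran from -0.0147 to 0.0792 by clonotypes and from -0.00235 to 0.0594 by molecules without 1 mouse, and was -0.0154 by molecules without the shallow libraries. The difference in CDR3β length was -0.00500 in thinned libraries and -0.00191 over nucleotide clonotypes, and -0.00474 to 0.0168 without 1 mouse. By molecules it was 0.00220 with the replicate block, 0.000291 without both replicate 4 libraries and -0.0213 to 0.00956 without 1 mouse. The difference in hydrophobic residues at positions 6 and 7 of CDR3β ran from -0.129 to 0.0102 percentage points by clonotypes and from -0.0371 to 0.0663 by molecules without 1 mouse, and was -0.0359 by molecules without both replicate 4 libraries. Leaving out both shallow libraries, leaving out both replicate 4 libraries and thinning the 9 mice alone were chosen after seeing the data. Replicate numbers were not shown to pair the mice: deviations of same-numbered mice by clonotypes correlated from -0.289 to 0.334 in TRAV use and at -0.0910, -0.184, 0.781 and 0.887 for numbers 1 to 4 in TRBV use, and 0 and 1 of 4 WT mice correlated best with their own number. By molecules, the limit of a count of 0 on the α chain was highest in β5i-KO replicate 4 (0.0222%), and by clonotypes in WT replicate 1 (0.122%).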
